A study of Homo sapiens with 2 samples.

Results

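The genes described here are the divergent transcripts, non-coding genes whose symbol is that of a neighbouring protein-coding gene followed by -DT. They were found by translating the Ensembl identifier of every row of the deposited tables into a symbol and keeping those that end in -DT. This gave 181 DT genes among the 14467 genes with a value in vesicle RNA from the LAD2 line, which was established from human mast cells. Extracellular vesicles are membrane-bound particles that cells release, and they carry RNA. The samples were 2 libraries of 1 group, both untreated. The cells grew in SP34 medium with its nutrients and stem cell factor under 5% CO2 at 37 °C, and vesicles were taken after 4 days. RNA came from a Qiagen micro-scale kit and the libraries from an NEB NextUltra kit that is named as a DNA kit, so nothing in the labels tells whether the strand of the RNA was kept. There is no control or donor-cell library here, so no statement about enrichment in vesicles over cells can be made. Nothing states that each library had its own culture, and the differences between them may be purely technical.

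Many active human promoters are transcribed in both directions. The upstream, divergent RNA usually starts within the same CpG-rich, nucleosome-depleted region as the coding gene and runs away from it on the other strand. Divergent RNAs tend to end early at polyadenylation signals, where the U1 snRNP that protects coding transcripts finds few sites, and the nuclear exosome degrades most of them soon after synthesis. Those with longer, spliced and more stable forms have been annotated as genes, and the human gene nomenclature names them after the coding gene whose promoter they share. A DT name therefore states a position and gives no function.

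The annotated geometry matched the names. Of the 178 DT genes with a GENCODE 29 model, 177 lay on the strand opposite to the gene in the name. The exception, TNFRSF10A-DT, lay on the same strand as its gene. In 166 of the pairs the 2 genes lay on opposite strands with start sites within 2 kb, called head to head here. This includes pairs whose 5′ ends overlap. The starts were within 300 bases of each other in 123 pairs, and the median distance, in either direction, was 170 bases. In 67 pairs the 5′ ends overlapped, and in 110 they were apart. DT genes with overlapping 5′ ends had a median deposited value of 4.75 (log2), against 3.19 for those with starts apart. All 181 genes in the names were annotated as protein-coding.

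The promoter windows below show what such shared start regions look like. MVP-DT and H2AZ1-DT are shown as the 2 highest DT genes of the results that follow, NQO1-DT and CHUK-DT as DT genes far above their named genes, and MRNIP-DT and ZNF132-DT as DT genes far below theirs. Each window runs from 250 bases before to 50 bases after the annotated DT start, read 5′ to 3′ on the DT strand, from the RefSeq promoter table of GRCh38.p14. Capitals mark every CCAAT box (CCAAT), GC box (GGGCGG) and TATA box (TATAAA) on either strand. The windows lie at chr16:29820318-29820617 on the minus strand for MVP-DT and, all on the plus strand, at chr4:99950244-99950543 for H2AZ1-DT, chr16:69726477-69726776 for NQO1-DT, chr10:100229410-100229709 for CHUK-DT, chr5:179858753-179859052 for MRNIP-DT and chr19:58440198-58440497 for ZNF132-DT.
MVP-DT: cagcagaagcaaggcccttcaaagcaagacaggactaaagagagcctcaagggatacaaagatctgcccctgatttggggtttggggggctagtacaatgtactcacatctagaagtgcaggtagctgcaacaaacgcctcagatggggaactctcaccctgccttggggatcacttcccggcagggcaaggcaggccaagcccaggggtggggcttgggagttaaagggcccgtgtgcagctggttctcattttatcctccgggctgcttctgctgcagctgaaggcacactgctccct
H2AZ1-DT: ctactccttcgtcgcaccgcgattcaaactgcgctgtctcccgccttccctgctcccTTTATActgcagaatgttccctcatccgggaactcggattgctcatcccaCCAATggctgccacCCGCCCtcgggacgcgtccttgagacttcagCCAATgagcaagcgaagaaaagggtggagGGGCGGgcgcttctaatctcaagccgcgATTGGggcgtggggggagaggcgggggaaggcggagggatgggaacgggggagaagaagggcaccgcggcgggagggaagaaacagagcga
NQO1-DT: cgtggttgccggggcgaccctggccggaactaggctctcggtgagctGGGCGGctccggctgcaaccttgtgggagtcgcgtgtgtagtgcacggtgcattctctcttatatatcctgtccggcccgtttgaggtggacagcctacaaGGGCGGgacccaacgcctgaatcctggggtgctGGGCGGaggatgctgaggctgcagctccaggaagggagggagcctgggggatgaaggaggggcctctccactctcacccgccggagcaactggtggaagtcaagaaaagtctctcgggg
CHUK-DT: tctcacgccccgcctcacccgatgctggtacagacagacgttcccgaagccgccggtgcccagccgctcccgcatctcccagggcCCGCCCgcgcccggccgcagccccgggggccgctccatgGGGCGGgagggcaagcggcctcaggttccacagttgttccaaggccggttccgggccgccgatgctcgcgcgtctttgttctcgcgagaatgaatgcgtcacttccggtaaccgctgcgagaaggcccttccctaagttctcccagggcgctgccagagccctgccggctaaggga
MRNIP-DT: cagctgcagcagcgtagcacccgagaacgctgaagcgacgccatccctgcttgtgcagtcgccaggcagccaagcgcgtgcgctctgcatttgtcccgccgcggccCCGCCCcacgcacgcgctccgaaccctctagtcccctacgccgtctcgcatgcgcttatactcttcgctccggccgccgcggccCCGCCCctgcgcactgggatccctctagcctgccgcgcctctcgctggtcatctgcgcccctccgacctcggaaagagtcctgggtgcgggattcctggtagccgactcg
ZNF132-DT: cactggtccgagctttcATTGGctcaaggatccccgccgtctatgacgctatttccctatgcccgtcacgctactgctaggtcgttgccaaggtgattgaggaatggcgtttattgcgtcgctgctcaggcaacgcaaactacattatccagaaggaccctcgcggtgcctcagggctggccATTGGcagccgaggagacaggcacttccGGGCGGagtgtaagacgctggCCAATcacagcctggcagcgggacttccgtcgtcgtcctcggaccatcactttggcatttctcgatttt

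The H2AZ1-DT window held 3 CCAAT boxes, 2 GC boxes and 1 TATA box, and 25 CpG dinucleotides. The start of H2AZ1 itself, on the other strand, fell at position 32 of the window. The NQO1-DT window held 3 GC boxes and 18 CpG, with the NQO1 start at position 84. The CHUK-DT window held 2 GC boxes and 33 CpG, with the CHUK start at position 187. The MRNIP-DT window, from the other end of the range of gaps, held 2 GC boxes and 37 CpG, with the MRNIP start at position 65. The ZNF132-DT window held 3 CCAAT boxes, 1 GC box and 23 CpG, and the ZNF132 start lay outside it. The MVP-DT window stood apart from these, with 4 CpG and no match to any of these motifs, and the MVP start at position 224. These windows rest on RefSeq starts, which lie 885 bases from the GENCODE 29 start used for all lengths and overlaps in MVP-DT, 488 in H2AZ1-DT, 286 in NQO1-DT, 10 in MRNIP-DT, 7 in CHUK-DT and 0 in ZNF132-DT. In the GENCODE 29 models MRNIP-DT and MRNIP have a start distance of -3160 bases, negative where 5′ ends overlap, so that pair is not counted among those within 2 kb.

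RefSeq windows were found for 138 of the 181 DT genes. Their median GC content was 68.2%, against 65.5% in 150 windows of the named genes and 58.3% in all 27305 promoter windows of the table. The median count of CpG in the 300 bases was 31 for DT genes, 28 for named genes and 14 for all promoters. The ratio of observed to expected CpG had a median of 0.901 in DT windows and 0.580 over all promoters. A GC box was present in 71.7% of DT windows, against 44.6% of all promoters. A TATA box was present in 2.9% of DT windows, against 12% of all promoters, and a CCAAT box in 31.2%, against 35.7%. The 333 windows of DT names without a row in the tables gave similar shares, with a GC box in 74.2%, a CCAAT box in 30.6% and a TATA box in 4.5%. Detected and undetected DT genes, as defined below, had a GC box in 68.0% and 76.2% of their windows. In 131 pairs both windows were available, and in 102 of them (77.9%) the window of the DT gene shared bases with that of its named gene, with a median of 214.5 shared bases. The windows describe letters and do not show which factor was bound.

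The values are on a log2 scale and came without read totals, so depth is not given and no counting interval can be set. The transform behind them was not given. Low values of the libraries lay close together, with a spread of 0.0109 over all rows with means from -5 to 2. It was 0.247 at means from 10 to 20. The difference between libraries may therefore understate the error of low genes. A gene was called detected where 2 to the power of its deposited value was at least 10 in both libraries, which is a log2 value of 3.32. The labelled cell type was checked against mast cell markers. Of 19 markers 14 had a row and 4 were detected, GATA2 (8.89 in replicate 1 and 9.16 in replicate 2), SIGLEC6, CTSG and MRGPRX2. KIT (2.20 and 2.18), TPSAB1 (2.35 and 2.31) and CPA3 (-0.23 and -0.24) were below the threshold, and FCER1A and MITF had no row, so most defining mast cell markers were low or had no row. Of 22 markers of other cell types 10 had a row and 6 were detected. Among them were the haemoglobin gene HBA2 (8.63 and 9.34) and the platelet gene GP1BA (7.88 and 7.57). The colon epithelium gene VIL1 was also detected (7.64 and 7.30). GP1BA and VIL1 have a coding exon on the other strand, and HBA2 has none. ALB, PPBP, PF4 and ITGA2B had no row. The part of other cell types in the DT levels was not tested. In bulk RNA, fewer vesicles carrying an RNA and less RNA per vesicle cannot be told apart.

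The name table held 590 DT names, of which 30.7% had a row, against 23.1% of its 62700 identifiers. Of the 181 DT genes 99 were detected (54.7%), against 45.5% of all 14467 rows. Other non-coding rows were detected in 57.1% of cases (1989 of 3482) and protein-coding rows in 43.6% (3675 of 8431). Each library alone gave the same count of 99. The median deposited value of DT genes was 3.72 (3.77 in replicate 1 and 3.70 in replicate 2), against 3.06 for all rows, 3.94 for other non-coding rows and 2.99 for protein-coding rows. DT genes were therefore placed near other non-coding genes of these libraries in both share and deposited value. These values were not divided by length. The median exonic length was 1703 bases for DT genes with a model and 991 for other non-coding rows. The lower and upper quartiles of DT genes were 1.92 and 6.03, and the range ran from -1.06 to 13.34, with 8 below 0.

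**Figure D1:**
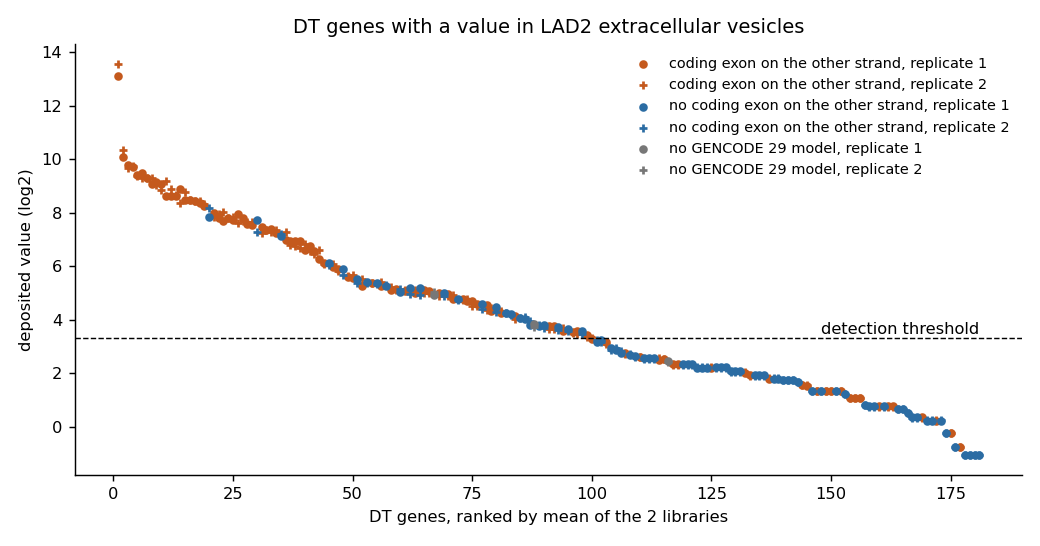
Deposited log2 value of each of the 181 DT genes (vertical axis) ranked by the mean of the 2 libraries (horizontal axis). Circles are replicate 1 and crosses replicate 2, orange marks DT genes with a coding exon on the other strand, blue those with none and grey the 3 without a model, and the dashed line is the detection threshold of 3.32. MVP-DT stands alone at the top, and all 19 DT genes at or above 8 are orange.

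The plot of ranked values shows a single gene set apart from a continuous slope. Together the DT genes held 1.41% of the summed linear values of replicate 1 and 1.54% of replicate 2, and MVP-DT alone held 35.6% and 43.1% of those sums. The low end was coarse. The 82 undetected DT genes had 38 distinct values, and 65 DT genes shared their value with another, 7 of them at 1.34. The order within such groups of equal values has no meaning. Just above the threshold lay EIF3J-DT (3.43 in replicate 1 and 3.37 in replicate 2), RNF32-DT and TCF12-DT (both 3.57 and 3.48). Just below it lay RPP38-DT (3.29 and 3.31), FZD4-DT (3.16 and 3.24) and GSK3B-DT (3.23 and 3.15). The threshold cuts a slope without a gap.

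MVP-DT was the highest DT gene, with deposited values of 13.10 in replicate 1 and 13.58 in replicate 2 (SD 0.34). MVP is the major vault protein, the main component of the vault ribonucleoprotein particle, and MVP itself had no row. The MVP-DT model covers 16:29808636-29821252 on the minus strand with 4039 exonic bases, and 1536 of these lie opposite exons of MAZ, a zinc finger transcription factor. MAZ had deposited values of 3.98 and 4.01, and on the scale of log2 value per kb of exon MVP-DT was 9.14 above it. H2AZ1-DT followed at 10.07 and 10.37. It shares the promoter of H2AZ1, which encodes the histone variant H2A.Z, and 223 of its bases lie opposite exons of that gene. H2AZ1 had deposited values of 1.22 and 1.24, so the gap per kb of exon was 9.28 in replicate 1 and 9.56 in replicate 2. In both pairs the libraries differed far less than the 2 genes did.

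USP34-DT had deposited values of 9.80 and 9.67, and its named gene, the deubiquitinase USP34, had 8.88 and 8.28. The gap per kb of exon was 4.12 in replicate 1 and 4.59 in replicate 2. USP34 was the highest named gene of the DT genes called higher, so here both sides of the promoter were well above the threshold. The coding exons opposite USP34-DT belong to XPO1, the nuclear export receptor, which shares 494 bases with it and had 6.47 and 6.45. NQO1-DT had 9.40 and 9.38, while NQO1, a quinone reductase of the oxidative stress response, had 1.02 in each library. The gap per kb of exon was 10.84 and 10.82, the largest gap of any pair in favour of a DT gene. Exons of NOB1, an endonuclease of ribosomal RNA maturation, lie opposite 429 of the 592 exonic bases of NQO1-DT, and NOB1 was detected at 6.76 and 6.86. WDR5B-DT had 9.71 and 9.75 and WDR5B, a WD-repeat protein, had no row, while KPNA1, an importin alpha that shares 1377 bases with it, had 4.22 and 4.12.

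The next DT genes followed closely. KPNB1-DT had deposited values of 9.13 and 9.04, and KPNB1, the nuclear import receptor importin beta, had 3.77 and 3.66, a gap per kb of exon of 8.0 in both libraries. GARS1-DT, with 22965 exonic bases the longest DT gene, had 8.63 and 9.18, and GARS1, the glycyl-tRNA synthetase, had -0.23 and -0.24. Its gap per kb of exon was 6.39 and 6.96, and only 99 of its bases lie opposite GARS1. TMED2-DT had 8.90 and 8.36 and TMED2, a cargo receptor of vesicles between the endoplasmic reticulum and the Golgi, had 1.35 and 1.33, a gap of 6.44 and 5.91 per kb. GNA15-DT had 8.47 and 8.78 and GNA15, a G protein alpha subunit of blood cells, had 3.47 and 3.56, a gap of 5.17 and 5.39 per kb. In these pairs too the named gene was the lower one in both libraries.

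The named gene had no row for another 6 of the 15 highest DT genes. ZNF691-DT, named after a zinc finger gene, had 9.48 and 9.30 (log2), and ERMAP, the erythroid membrane protein whose exons lie opposite 478 of its bases, had 5.81 and 5.82. EOGT-DT, named after an O-GlcNAc transferase of the endoplasmic reticulum, had 9.28 and 9.30. The gene opposite it, the Golgi-associated TMF1, was at the bottom of the table at -1.06 in both libraries, which put EOGT-DT 11.43 above it per kb of exon. MLF1-DT, named after a myeloid leukaemia factor, had 9.09 and 9.30 against 2.23 and 2.19 for RSRC1, a splicing-related gene. IL10RB-DT, named after a receptor subunit of the interleukin 10 family, had 9.09 and 8.86. The largest overlap among the 15 was here, with 1803 of 2228 exonic bases opposite the interferon receptor gene IFNAR2, which had 6.09 and 5.58. PGLS-DT (8.63 and 8.90) and BTG1-DT (8.63 and 8.65) lie opposite exons of their own named genes, an enzyme of the pentose phosphate pathway and an antiproliferative gene, and neither of those had a row.

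**Figure D2:**
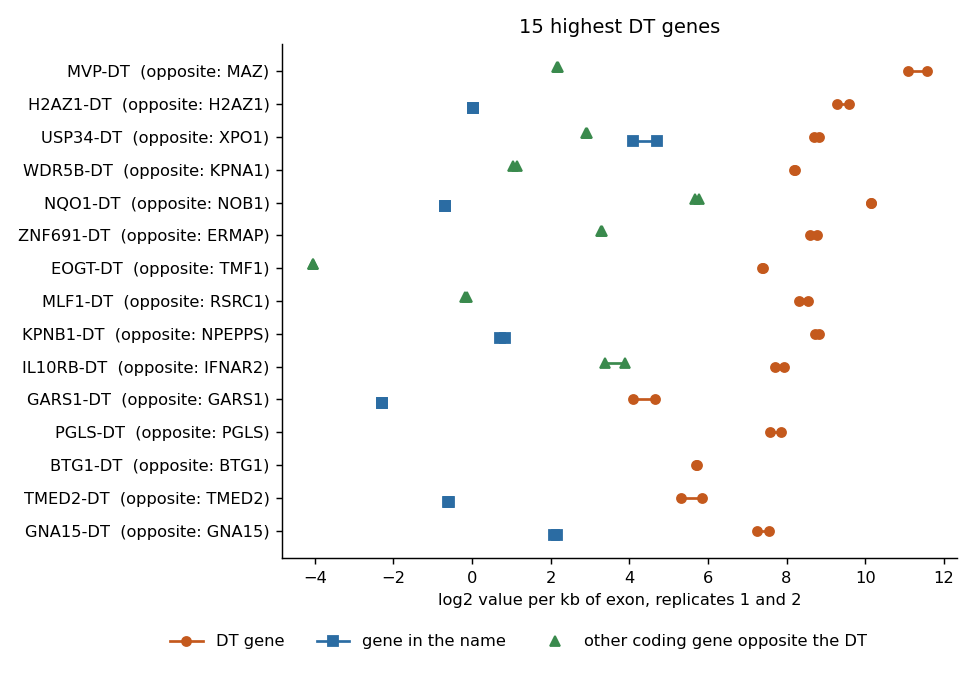
Log2 value per kb of exon (horizontal axis) of the 15 highest DT genes in replicates 1 and 2 (orange circles joined by a line), of the gene in the name (blue squares) and of another coding gene opposite the DT exons (green triangles), where these have a row. Every orange pair lies to the right of the blue and green marks of its line, and the distance between replicates is small beside the distance between genes.

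All 15 of these DT genes, and all 19 with a mean deposited value of at least 8, have exons that share bases with a protein-coding exon on the other strand. How strand was handled in counting is unknown here, so reads of a DT gene and of a coding gene opposite to it cannot be told apart. Over all models, 99 DT genes had a coding exon opposite and 79 had none. Of those with a coding exon opposite 71 were detected (71.7%), against 26 (32.9%) of those with none. The median deposited value was 5.14 with a coding exon opposite (5.11 in replicate 1 and 5.13 in replicate 2) and 2.22 without (2.23 and 2.24). This difference of 2.92 was many times the spread between the libraries, but no test was made because genes of 1 library are not replicates. It was not particular to DT genes, since 78.5% of other non-coding genes with a coding exon opposite were detected (median 6.05, n = 1964), against 29.4% of those with none (median 2.44, n = 1518).

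The length of the overlap moved with the level. DT genes sharing 1 to 199 bases with a coding exon were detected in 57.8% of cases (n = 45, median 4.29), those sharing 200 to 499 bases in 85.3% (n = 34, median 6.14) and those sharing 500 or more in 80.0% (n = 20, median 7.35). The coding gene of longest overlap was the gene in the name for 52 DT genes, of which 61.5% were detected with a median of 4.80. It was another coding gene for 47, of which 83.0% were detected with a median of 6.72. The same held for having a row at all: of the DT names with a model, 58.6% of the 169 with a coding exon opposite had a row, against 19.0% of the 415 with none. These shares of rows were not computed for other non-coding genes, so this split is not shown to be particular to DT names. The part of opposite-strand reads in these levels was not tested. The coding gene opposite had a row for 68 of the 99. Per kb of exon the DT gene was higher than it in 51 of these, lower in 8 and neither in 9, by the rule given below. The median gap was 3.99, which does not measure the strand the reads came from. This comparison was not made for other non-coding genes, so the counts are not shown to be particular to DT genes.

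**Figure D3:**
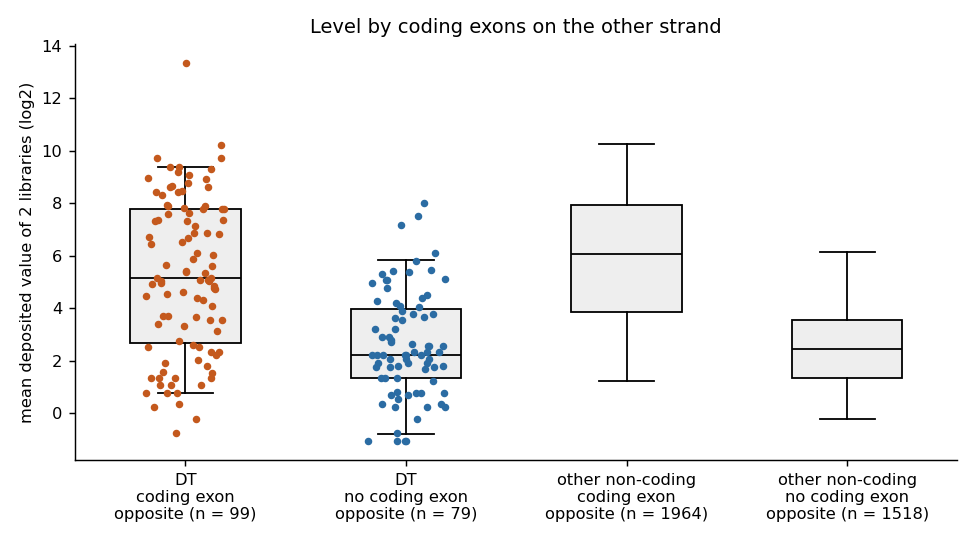
Mean deposited log2 value of the 2 libraries (vertical axis) for DT genes with and without a protein-coding exon on the other strand, and for other non-coding genes split the same way. Points are DT genes, boxes give the quartiles and the median, and whiskers run between the 5th and 95th percentiles of genes. The medians are 5.14 and 2.22 for DT genes and 6.05 and 2.44 for other non-coding genes.

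Without any coding exon opposite, the highest DT gene was GOLPH3-DT, with deposited values of 7.83 in replicate 1 and 8.17 in replicate 2. Its named gene GOLPH3, a Golgi phosphoprotein of vesicle budding, had 4.22 and 4.28, and the gap per kb of exon was 5.41 and 5.68. SLC20A1-DT, named after a phosphate transporter, had 7.72 and 7.27. ATF6-DT, named after a transcription factor of the unfolded protein response, had 7.13 and 7.22, ZNF470-DT had 6.12 and 6.06, and PTPN23-DT, named after a phosphatase-like protein of endosomal sorting, had 5.91 and 5.67. These DT genes show that values well above the threshold were also found where no coding exon lies on the other strand.

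The comparison that the names imply is of each DT gene with its own coding gene. Of the 181 named genes 99 had a row (54.7%), against 42.3% of all 19951 protein-coding genes of GENCODE 29. For the 409 DT names without a row, 202 of the named genes had one (49.4%). Among the 99 pairs with both rows, both genes were detected in 24, the DT gene alone in 35, the named gene alone in 18 and neither in 22. A further 40 DT genes were detected while their named gene had no row. The median deposited value was 3.76 for DT genes whose named gene had a row and 3.16 for the others, and 3.06 for the named genes themselves.

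DT genes and named genes differ in length (median exonic length 1791 and 6503 bases in these pairs), so the levels were compared as log2 value per kb of exon. A DT gene was called higher or lower than its named gene where this gap was at least 1 log2 unit in the same direction in both libraries. Of the 97 pairs with values and lengths for both, the DT gene was higher in 64 (66.0%), lower in 17 (17.5%) and neither in 16 (16.5%). Without division by length 41 were higher and 30 lower. The median gap was 2.31 (2.34 in replicate 1 and 2.27 in replicate 2), the median SD of a gap between libraries was 0.0577 and the largest 0.398. The calls were the same in number in each library alone. Without division by length the median difference of deposited values was 0.55, and 12 pairs called higher per kb had the lower deposited value. The same direction was the more frequent one in other pairs. In the 90 pairs that were head to head within 2 kb the DT gene was higher in 59 (65.6%) and lower in 15 (16.7%), against 78.1% and 10.3% of 485 other head-to-head pairs of a non-coding and a coding gene, whose median gap was 4.11.

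**Figure D4:**
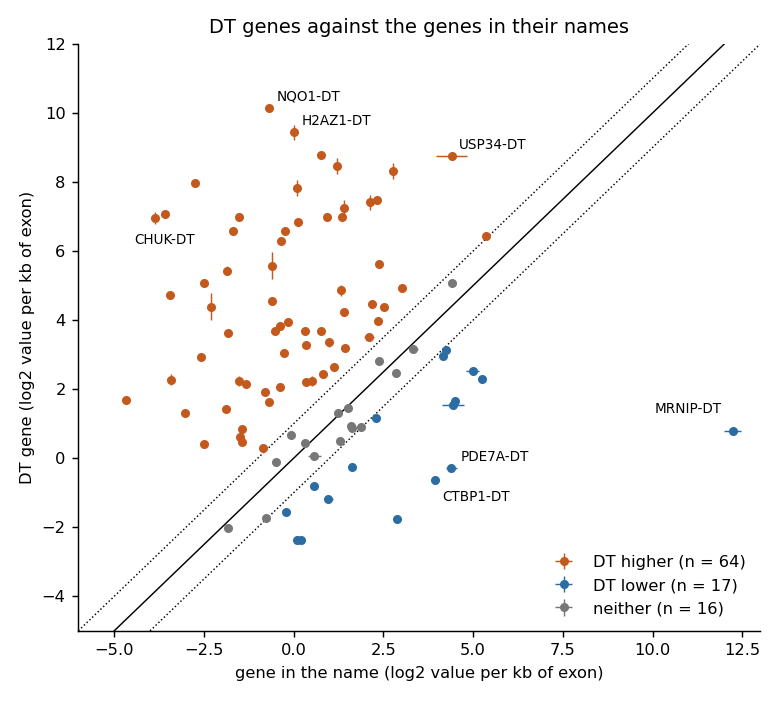
Log2 value per kb of exon of the DT gene (vertical axis) against that of the gene in its name (horizontal axis) for 97 pairs. Points are means of 2 libraries, bars are SD, the solid line is equality and the dotted lines are 1 log2 unit on either side. Orange points (DT gene higher, n = 64) spread far above the line, blue points (DT gene lower, n = 17) lie nearer to it, and MRNIP-DT lies far out on the right.

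In the 57 pairs with a detected DT gene, it was higher in 50, lower in 4 and neither in 3, with a median gap of 5.15 per kb of exon, a choice that favours the DT gene. In the 24 pairs with both genes detected, the DT gene was higher in 18, lower in 4 and neither in 2. In the 75 pairs with at least 1 gene detected, it was higher in 52 (69.3%) and lower in 14 (18.7%). The remaining calls of the 97 pairs were made between 2 undetected genes. The call is built from both values, so the medians that follow only describe it. Pairs called higher had a median deposited value of 5.04 for the DT gene and 2.48 for the named gene. Pairs called lower had 1.75 for the DT gene and 5.80 for the named gene. With a coding exon opposite the DT gene, 36 of 52 pairs were called higher and 8 lower, with a median gap of 3.31, and with none 28 of 45 were called higher and 9 lower, with a median gap of 1.90.

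Among the 8 largest gaps, CHUK-DT had deposited values of 6.61 and 6.84 and CHUK, the IKK-alpha kinase of NF-kappaB signalling, had -1.06 in both libraries. The gap per kb of exon was 10.70 in replicate 1 and 10.94 in replicate 2. ATF6-DT stood 10.68 and 10.77 above ATF6, which had 0.23 in both libraries. HEATR5A-DT had 8.0 and 7.83 and HEATR5A -0.23 and -0.24, a gap of 10.75 and 10.59 per kb. These named genes lay at the lowest values of the tables, where the libraries lie closest together. The size of such gaps is therefore set by the DT gene and by the lengths. CD2AP-DT, named after an adaptor of the actin cytoskeleton, had 5.41 and 5.38 against 1.22 and 1.24 for CD2AP (gap 8.55 and 8.50). EPM2A-DT, named after the glycogen phosphatase laforin, had 7.38 and 7.29 against 0.77 and 0.75 for EPM2A (gap 8.22 and 8.14). The EPM2A-DT model starts more than 2 kb from the start of the named gene.

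The widest gap of all ran the other way. MRNIP-DT had deposited values of 1.35 and 1.33, below the threshold, while MRNIP, which encodes an interactor of the MRE11-RAD50-NBS1 DNA repair complex, had 15.15 and 15.49. The gap per kb of exon was -11.26 in replicate 1 and -11.61 in replicate 2. Exons of MRNIP share 1582 bases with exons of SQSTM1, the autophagy receptor p62, on the other strand, and SQSTM1 had 8.54 and 8.82. PDE7A-DT had -1.06 in both libraries and PDE7A, a cyclic AMP phosphodiesterase, had 7.39 and 7.18, a gap of -4.78 and -4.56 per kb. CTBP1-DT had 2.35 and 2.31 and CTBP1, a transcriptional corepressor, had 7.06 and 6.94, a gap of -4.61 and -4.53 per kb. In these 3 pairs the named gene had the higher value in both libraries. Exons of MTFR1, a mitochondrial fission regulator, share 116 bases with those of PDE7A, and whose reads were counted at MRNIP and PDE7A was not tested.

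ZNF132-DT, whose promoter window is given above, had deposited values of 0.68 in both libraries and the zinc finger gene ZNF132 had 4.71 and 4.67, a gap of -4.65 and -4.61 per kb of exon. PPP1R3B-DT had 1.77 and 1.74 against 2.77 and 2.71 for PPP1R3B, a glycogen-targeting subunit of protein phosphatase 1, and neither passed the threshold. Of the 24 pairs with both genes detected, the 4 called lower were ZNF584-DT, RNF32-DT, EIF3J-DT and PKD2L2-DT. ZNF584-DT had 4.07 and 4.06 against 7.17 and 7.10 for ZNF584 (gap -2.99 and -2.92). RNF32-DT had 3.57 and 3.48 against 6.79 and 6.34 for RNF32 (gap -3.07 and -2.72). EIF3J-DT had 3.43 and 3.37 against 6.24 and 6.12 for EIF3J, a subunit of a translation initiation factor (gap -2.88 and -2.81). PKD2L2-DT, named after a polycystin-like channel, had 3.77 and 3.66 against 6.33 and 6.43 for PKD2L2 (gap -1.09 and -1.29). The last lies close to the limit of 1 log2 unit.

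Coding exons on the other strand were also found at some of the named genes. Over all 97 pairs a coding exon lay opposite the named gene in 16 (16.5%). It did so in 6 of the 17 pairs called lower (35.3%), in 6 of the 64 called higher (9.38%) and in 4 of the 16 called neither (25%). These counts are small, and the call is built in part from the value of the named gene. The 6 lower pairs were those of MRNIP, PDE7A, PKD2L2, RNF32, EIF3J and RPP38. The share of reads from that strand was not tested.

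Grouping DT genes by the role of the coding gene gave groups to be read against the 54.7% detected, the median of 3.72 and the 66.0% of pairs called higher over all DT genes, and against the 45.5% detected over all rows. Of the 15 DT genes named after genes of membrane traffic and nuclear transport 13 were detected, with a median deposited value of 5.44, and the DT gene was higher per kb in all 10 of their pairs. Examples are KPNB1-DT, TMED2-DT and GOLPH3-DT, given above. Of 11 named after ubiquitin and proteolysis genes 9 were detected (median 4.46), among them DCAF8-DT (8.48 and 8.46), named after a ubiquitin ligase adaptor, and DPP3-DT (5.06 and 4.99), named after a dipeptidyl peptidase that had 4.40 and 4.28. In that group the DT gene was higher in 4 pairs, lower in 1 and neither in 2. Of 14 named after cytoskeleton and cell division genes 8 were detected (median 4.52), such as CTTN-DT (7.49 and 7.23), named after the actin regulator cortactin, and FMNL1-DT (5.06 and 5.11), named after a formin. Coding exons lay opposite 9 of the 15, 9 of the 11 and 7 of the 14 DT genes of these groups. Over all DT genes with a model it was 99 of 178. The part of these exons in the levels was not tested.

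Transcription and chromatin gave the largest named group, with 33 DT genes, 18 of them detected and a median of 3.65. The DT gene was higher in 15 of 22 pairs and lower in 4, and TOX-DT, named after a T cell transcription factor, had 8.25 and 8.33 against 4.35 and 4.37 for TOX. Of 16 DT genes named after RNA processing and translation genes 8 were detected (median 3.35), with 6 pairs higher and 2 lower. In this group DDX19A-DT had 7.55 and 7.64 against 3.94 and 3.89 for the RNA helicase gene DDX19A (gap 5.99 and 6.14 per kb), while MIF4GD-DT had 7.82 and 7.70 against 6.90 and 6.76 for MIF4GD (gap 1.05 and 1.07 per kb). Signalling and receptor genes gave 26 DT genes with 10 detected (median 2.6), although 10 of 13 pairs were higher. Metabolism and mitochondria gave 22 with 10 detected (median 2.57), and here the calls were nearly even, with 5 pairs higher and 4 lower. MMADHC-DT, named after a vitamin B12 trafficking gene, had 7.71 and 8.03 against 1.22 and 1.24 for MMADHC. Channels and transporters gave 9 DT genes with 4 detected (median 2.22), among them LRRC8C-DT (6.96 and 6.68), named after a subunit of volume-regulated anion channels. The other 35 DT genes, 19 detected, had a median of 4.06. Of DT genes with a model, coding exons lay opposite 15 of 32 in transcription and chromatin. They lay opposite 13 of 16 in RNA processing and translation and 8 of 25 in signalling and receptors. In metabolism and mitochondria it was 13 of 21, in channels and transporters 3 of 9 and in the others 22 of 35. Each named gene was given a single role by symbol, although some have several. CD2AP-DT was counted under membrane traffic and nuclear transport, and PTPN23-DT under signalling and receptors. The differences between these groups were not tested.

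**Figure D5:**
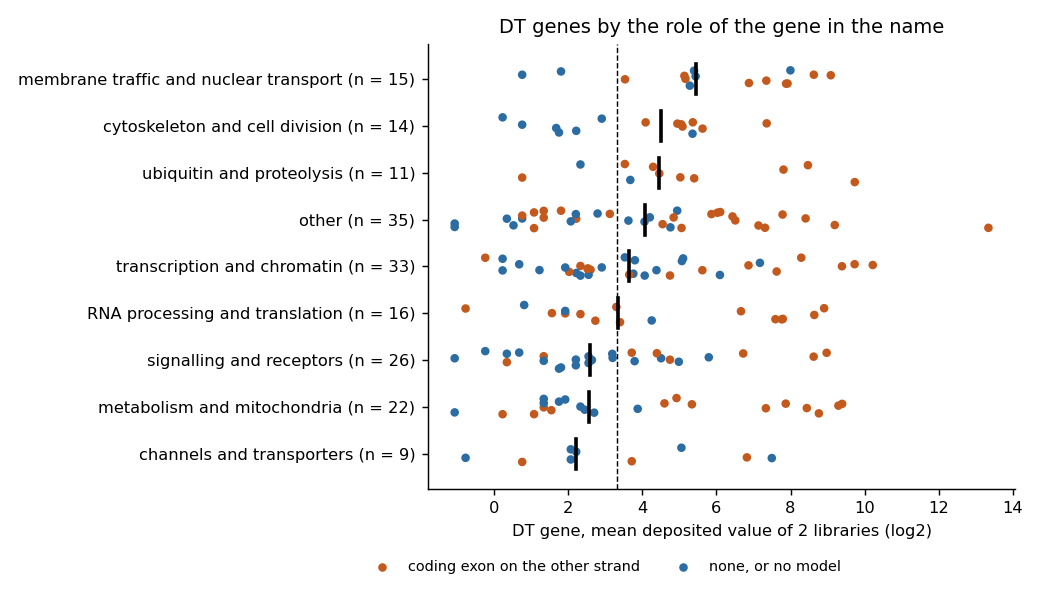
Mean deposited log2 value of each of the 181 DT genes (horizontal axis) by the role of the gene in its name (rows, ordered by median). Black bars are medians, the dashed line is the detection threshold of 3.32, orange points have a coding exon on the other strand and blue points have none or no model. Membrane traffic and nuclear transport has the highest median (5.44) and channels and transporters the lowest (2.22), and every group spans the threshold.

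The libraries gave nearly the same values for DT genes. None differed by 2-fold or more between replicates 2 and 1, against 0.0899% of all rows (13 of 14467), and none differed by 1.5-fold. Of the 99 detected DT genes 46 were higher in replicate 2 and 53 in replicate 1, with a median difference of -0.01 (log2, replicate 2 minus replicate 1), against -0.02 for all detected rows. The largest differences were 0.56 for GARS1-DT and -0.55 for TMED2-DT. MVP-DT and GOLPH3-DT were the next highest in replicate 2, and SLC20A1-DT and CTDSPL2-DT (7.94 in replicate 1 and 7.63 in replicate 2) the next highest in replicate 1. The spread between libraries was 0.166 for DT genes with means from 8 to 10, against 0.205 for all rows in that range, and 0.0857 for both between 4 and 6.

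The machinery that limits divergent RNA in the nucleus was represented by 48 genes of the nuclear exosome, its adaptors, the cap-binding complex, cleavage and polyadenylation factors, U1 snRNP proteins and Integrator. Of these 36 had a row, against 42.3% of all protein-coding genes. Of the 36, 22 were detected, with a median deposited value of 4.61, against 43.6% and 2.99 over all protein-coding rows. The highest were EXOSC8, a core exosome subunit (10.83 in replicate 1 and 10.82 in replicate 2), MTREX, the helicase that feeds the exosome (10.54 and 10.12), NRDE2, a partner of that helicase (9.27 and 9.55), and DIS3, a catalytic exosome nuclease (8.82 and 8.66). These 4 also have a coding exon on the other strand. The core subunits EXOSC1 and EXOSC2 and the adaptors ZCCHC8 and ZFC3H1 had no row. MVP-DT was above every gene of this list.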

How the data were processed

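RNA-seq of LAD2 extracellular vesicles was analysed in 2 libraries of 1 group. Per the submitters' processing notes, FastQC 0.11.5, STAR 2.6.1a and hg38 were used. The counter, strand setting, annotation and transform were not given in the sources used here. In each library, the authors deposited 1 log2 value per gene and library under the name of counts. The deposited values hold fractions and 1029 of 14467 genes lie below 0, so no count model was used, and depth per sample is unknown.

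Identifiers were translated with the name table provided (14464 rows matched), and gene models came from GENCODE 29 (13733 rows matched). Exonic length is the union of exons. Opposite overlap means at least 1 base shared with a protein-coding exon on the other strand. Detected means a linear value of at least 10 in both libraries, and a gap call needs at least 1 log2 unit per kb in both. Promoters came from RefSeq GRCh38.p14. No p-values were computed, since there is 1 group. Replicate error is the SD of 2 libraries. Alternatives covered names, threshold, length, overlap, gap size and single libraries.

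The members and lists were chosen with earlier results of these data known. Genes were named by rule: the 15 highest DT genes, the 8 largest and 8 smallest gaps, the 5 highest named genes, the 3 largest library differences each way, the 3 on each side of the threshold and up to 8 with no row for the named gene. Of the genes this rule names, 1 is not reported here. Examples for roles and for DT genes with no coding exon opposite were chosen after their values were seen. Roles were assigned by symbol, whatever the values. Scripts were tested on simulated data and used Python 3.11.15, numpy 2.4.6, pandas 2.3.3, matplotlib 3.10.9 and bedtools 2.31.1.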

Additional observations from a re-analysis of the deposited data

How the results depend on the processing

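Of 35 alternatives 0 reversed a value. Most were counts, which the rule could not label as reversed, and a median level has no direction to reverse. The 0 therefore says little about how stable the results are. In 18 a count stayed within 1.5 times that reported or a value within 1 SD between the libraries, and 17 went beyond that. Under GENCODE 29 symbols 22 DT genes had a value, since most DT names are newer. A linear threshold of 50 left 48 detected. The median level was 5.62 among detected DT genes, 3.12 per kb of exon and 2.22 with no coding exon opposite, and 3.70 to 3.77 when 1 library was left out. Without division by length, 41 DT genes were higher and 30 lower than the named gene. With no coding exon opposite, 28 were higher and 9 lower, out of fewer pairs. A gap of at least 0 gave 27 lower and one of at least 2 gave 11. The difference in level by coding exon opposite was 4.25 with at least 200 shared bases, 2.88 per kb of exon and 2.89 with either library left out, and 2.93 in head-to-head pairs, an alternative chosen after seeing the data. No paired analysis was possible because there is 1 group. An unknown transform and the lack of read totals limit what low DT genes can show.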
